A study of Mus musculus with 12 samples.

Results

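The class IIa histone deacetylases and the MEF2 (myocyte enhancer factor 2) transcription factors were followed in mouse B cells before and after 4 h of culture without stimulus. Members were the genes whose symbols are *Hdac4*, *Hdac5*, *Hdac7*, *Hdac9*, *Mef2a*, *Mef2c* and *Mef2d*, which are 7 of the 13574 genes in the union of the 0 h and 4 h count tables. All 7 had a row in both tables and all 7 passed the filter on low counts in every fit, with 114 to 12110 reads per library. They were chosen by name after earlier results of these data had placed *Hdac9* among the genes that differed between WT and KO cells at 4 h, so the measured values behind the choice are the counts at 4 h. The members' genotype differences at 4 h, the interaction that contains them and the changes over culture, which use the same 4 h libraries, are therefore given as descriptions without p-values.

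Class IIa deacetylases carry an amino-terminal extension that binds MEF2 on DNA, have weak deacetylase activity of their own, and bring the NCOR corepressors and HDAC3 to MEF2-bound genes. Salt-inducible kinases (SIKs), protein kinase D and calcium/calmodulin-dependent kinases phosphorylate them, and the phosphorylated proteins are bound by 14-3-3 proteins and held in the cytoplasm. Protein kinase A, which acts below Gαs-coupled receptors, inhibits the SIKs. In B cells MEF2C is known for its part in the response to the antigen receptor, and HDAC7 for silencing genes of other lineages during early B cell development.

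RNA was sequenced from follicular B cells (CD21/35- CD23+), the main recirculating B cells of the spleen, sorted from male adult mice. WT mice were Gpr174+/Y and KO mice Gpr174-/Y, in which tdTomato replaces the only coding exon of the X-linked gene for the receptor GPR174, in all cells of the animal and not in B cells alone. Cells were frozen directly once sorted (0 h, here fresh) or kept without stimulus in complete RPMI for 4 h (here cultured), which gave fresh WT, fresh KO, cultured WT and cultured KO cells as 4 groups of 3 libraries. The study states 3 mice per genotype, and values are mean ± SD (n = 3) unless they are given per library.

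Library totals ran from 6098941 to 11618787 counts, and 6.65% to 11.3% of a library was in the *Rn45s* row of ribosomal RNA precursor. Levels are given in CPM, which are counts scaled to the library's TMM-adjusted total. Counts of the targeted gene were 152 ± 4.26 CPM in fresh WT and 74.7 ± 1.76 in fresh KO, then 162 ± 8.36 in cultured WT and 110 ± 7.51 in cultured KO. The *Gpr174* row counts the whole gene, and which of its exons gave the reads in the KO cannot be read from such counts. All 6 B cell markers were present. Their sum was 6854 to 7217 CPM in fresh WT and 6783 to 6919 in fresh KO. It was 5208 to 5495 CPM in cultured WT and 6122 to 6272 in cultured KO. At 4 h 0 of the 6 were called higher and 3 lower in WT, beside 5.67% lower over all genes. These were *Cd22*, *Ms4a1* and *Pax5*, with log2 fold changes of -1.03, -0.59 and -0.43. The 6 T cell markers summed to 3.87 to 12.1 CPM. Of 9 macrophage markers 6 were rows of both tables (*Adgre1* under its older symbol *Emr1*), without *C1qa*, *C1qb* or *C1qc*, and their sum was 59.9 to 71.8 CPM at 0 h and 25.8 to 46.8 at 4 h. The 4 plasma cell markers (*Jchain* under its older symbol *Igj*) summed to 76.9 to 136 CPM. The largest part in each group was *Xbp1*. It was at 74.9 ± 2.38 CPM in fresh WT, 72.3 ± 5.28 in fresh KO, 50.7 ± 1.66 in cultured WT and 45.2 ± 1.76 in cultured KO. Beside 0.987% of all genes, 1 of the 4 was called at 0 h, *Sdc1*, higher in WT (log2 fold change 1.64 ± 0.28). It was at 7.73 ± 0.13 CPM in fresh WT and 2.44 ± 0.91 in fresh KO, then 24.3 ± 4.15 in cultured WT and 17.7 ± 1.57 in cultured KO. Several markers moved with the groups. *Fcer2a*, which encodes the sort marker CD23, was at 1479 to 1569 CPM in fresh WT, 1243 to 1448 in fresh KO, 516 to 534 in cultured WT and 933 to 1028 in cultured KO. The 5 marginal zone markers, *Cr2* of CD21/35 among them, summed to 1189 to 1270, 1038 to 1214, 233 to 277 and 368 to 416 CPM in the same order. Most of each sum was *Cr2*, at 1069 ± 45.7, 960 ± 91.4, 159 ± 26.6 and 299 ± 22.3 CPM. For the 7 markers of dividing cells the order was 137 to 220, 349 to 504, 105 to 156 and 150 to 274 CPM. At 0 h 5 of the 7 were called lower in WT and 0 higher, beside 0.485% lower over all genes. The 5 were *Mki67*, *Top2a*, *Ccna2*, *Cenpf* and *Cdk1*, with log2 fold changes of -1.23, -1.10, -1.46, -1.33 and -1.93. At 4 h 2 of the 7, *Mki67* (-0.83) and *Ccna2* (-0.80), were called lower in WT, beside 5.67% lower over all genes. The part of any of these cell type markers in the results below was not tested. In bulk RNA, fewer cells of a type and less RNA per cell cannot be told apart.

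The 7 genes lie on different chromosomes (GRCm38, GENCODE vM21). *Hdac9* is the longest, at chr12:34047580-34917095 on the minus strand with 10687 bases of exon. *Hdac7* spans chr15:97792664-97844502 (minus), *Hdac4* chr1:91928779-92195699 (minus) and *Hdac5* chr11:102194432-102230166 (minus). *Mef2a* spans chr7:67231163-67372858 (minus), *Mef2c* chr13:83504034-83667080 (plus) and *Mef2d* chr3:88142372-88172086 (plus). RefSeq gives 13 promoter windows for the 7 genes (GRCm38.p6, 250 bases before to 50 after a start site). Both strands were searched for a cyclic AMP response element (TGACGTCA), for its shorter part TGACG, which the longer motif contains, and for the MEF2 site. None of the 13 windows held the full element, against 1.79% of the 32851 windows of all genes. The shorter part was in the windows of *Hdac4* and *Hdac5* (20.8% of all windows), and a MEF2 site in those of *Hdac5* and *Mef2a* (3.19%). No window of *Hdac7* (4 windows), *Hdac9* (2), *Mef2c* (3) or *Mef2d* (1) held any of these motifs. The MEF2 matches are shown because members of both protein families carry a site for MEF2 itself at the start of their own gene. The TGACG matches are shown because these letters are the core of the element bound by CREB, a factor that protein kinase A phosphorylates. Sequences read 5′ to 3′ along the gene with 1 match in capitals. Of the TGACG matches, 1 of 3 in *Hdac4* and 1 of 2 in *Hdac5* is shown, and the other match of *Hdac5*, with its first base 7 bases after the start, lies in lower case in the same stretch.
*Hdac5*, MEF2 site, chr11:102230173-102230202 (minus), first motif base 20 bases before the start: gggtctgagcCTATTTTTAGctcggggtcg
*Mef2a*, MEF2 site, chr7:67372841-67372870 (minus), first motif base 2 bases before the start: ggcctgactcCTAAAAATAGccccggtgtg
*Hdac4*, TGACG, chr1:92180375-92180404 (minus), first motif base 51 bases before the start: cacggggggaggTGACGcaaagccgttgta
*Hdac5*, TGACG, chr11:102230139-102230168 (minus), first motif base 16 bases after the start: acgtgacgagagTGACGtctccgaatgttg
These matches are descriptions of the reference sequence, and no binding was measured.

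Per kb of exon, *Mef2c* was the highest of the 7 genes in every group and *Hdac4* the lowest. In fresh WT cells the levels were 154 ± 10.3 CPM per kb for *Mef2c*, 43.3 ± 0.04 for *Mef2d*, 29.9 ± 0.81 for *Hdac7*, 13.6 ± 0.94 for *Mef2a*, 13.5 ± 1.37 for *Hdac5*, 9.71 ± 0.48 for *Hdac9* and 2.03 ± 0.30 for *Hdac4*. The libraries of *Mef2a* and *Hdac5* overlapped in this order, and those of the other neighbours did not. In cultured WT cells *Hdac7* (13.6 ± 0.93) was placed after *Hdac5* (15.3 ± 1.51) and overlapped both it and *Mef2a* (12.4 ± 0.19). *Hdac9* was at 2.97 ± 0.28 there, next to *Hdac4* at 2.22 ± 0.30. In cultured KO cells *Hdac7* kept the place after *Mef2d*, at 23.4 ± 1.48, and *Hdac5* (13.7 ± 0.86) overlapped *Mef2a* (13.0 ± 0.94).

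**Figure D1:**
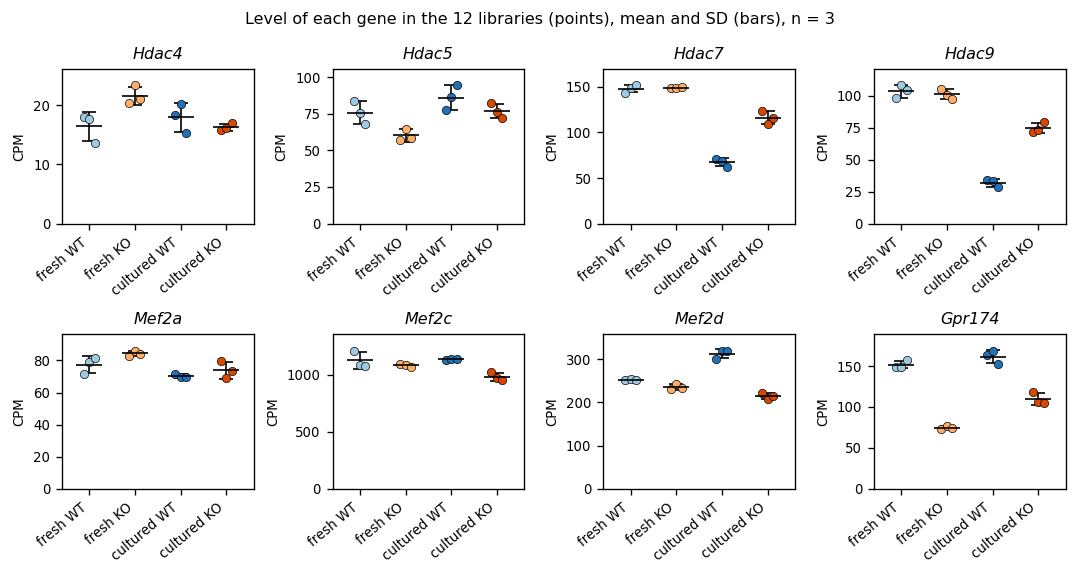
Level of the 7 genes and of *Gpr174* in CPM (vertical axes, from 0) by group (horizontal axes, fresh is 0 h and cultured is 4 h). Points are libraries, horizontal bars are means and whiskers SDs (n = 3). *Hdac7* and *Hdac9* are lowest in cultured WT, where *Hdac9* lies between 28.3 and 34.0 CPM and the cultured KO libraries between 71.7 and 79.3, whereas *Mef2d* is highest in cultured WT.

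*Hdac9* encodes a class IIa deacetylase that is itself described as a MEF2 target. It was at 98.3, 108 and 105 CPM in the fresh WT libraries and at 106, 101 and 97.5 CPM in fresh KO. After culture it was at 34.0, 33.0 and 28.3 CPM in cultured WT and at 71.7, 73.4 and 79.3 CPM in cultured KO. The groups at 0 h overlapped, every 4 h library was below every 0 h library, and the cultured WT libraries were all below those of cultured KO.

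*Hdac7*, the most abundant deacetylase of the class in 3 of the 4 groups, followed the same order. Its levels were 144, 149 and 152 CPM in fresh WT and 149, 149 and 150 CPM in fresh KO. They were 71.3, 68.4 and 62.3 CPM in cultured WT and 124, 109 and 116 CPM in cultured KO. The 3 cultured WT libraries were again the lowest of the 12, and the cultured KO libraries lay between them and the 0 h libraries. *Hdac7* overlaps *Slc48a1* on the other strand by 29 bases of exon, and that gene was at 22.7 ± 3.77 CPM in cultured WT and 25.5 ± 3.95 in cultured KO.

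*Hdac5* and *Hdac4*, the other members of the class, did not show this order. *Hdac5* was at 83.6, 75.4 and 68.3 CPM in fresh WT, 56.8, 64.8 and 58.7 in fresh KO, 77.4, 86.1 and 94.3 in cultured WT and 82.0, 75.9 and 72.4 in cultured KO. The fresh KO libraries were the lowest, and the other groups overlapped. *Hdac4* was at 13.7 to 18.0 CPM in fresh WT, 20.3 to 23.4 in fresh KO, 15.4 to 20.2 in cultured WT and 15.8 to 17.0 in cultured KO. Its fresh KO libraries were the highest of the 12, but it rests on 114 to 161 reads per library.

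Among the MEF2 factors, *Mef2d* in WT cells moved in the direction opposite to *Hdac9* and *Hdac7*. It was at 253, 253 and 252 CPM in fresh WT and 231, 243 and 233 in fresh KO, then 301, 318 and 320 in cultured WT and 221, 207 and 214 in cultured KO. The 4 groups did not overlap. On the other strand *Mef2d* overlaps *1700113A16Rik* by 492 bases of exon, and strand was not stated for the counting, so reads of both genes cannot be told apart there. That antisense gene was at 46.5 ± 0.70 CPM in fresh WT, 47.3 ± 5.93 in fresh KO, 56.2 ± 4.76 in cultured WT and 41.8 ± 3.47 in cultured KO, which is the same direction at 4 h as *Mef2d*.

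*Mef2c*, the predominant MEF2 factor of B cells, was at 1215, 1087 and 1081 CPM in fresh WT and at 1098, 1089 and 1070 in fresh KO. Its levels were 1135, 1137 and 1139 CPM in cultured WT and 1026, 969 and 952 in cultured KO. The cultured KO libraries were the lowest of the 12, and cultured WT lay within the range of fresh WT. *Mef2a* was at 71.4 to 81.7 CPM in fresh WT, 82.8 to 86.1 in fresh KO, 69.7 to 71.6 in cultured WT and 69.0 to 79.6 in cultured KO. *Mef2b*, the remaining gene of the MEF2 family and not a member here, was at 7.06 ± 2.96, 11.2 ± 3.26, 4.55 ± 1.29 and 6.89 ± 2.33 CPM in fresh WT, fresh KO, cultured WT and cultured KO.

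Immediately after the sort, WT and KO cells were compared to ask whether the genes differed before culture. No member was called at an adjusted p under 0.05 by edgeR or by DESeq2, and 2 of 7 (*Hdac4* and *Hdac5*) had an unadjusted edgeR p under 0.05. Over all genes 0.987% were called in this contrast. The WT over KO log2 fold change of *Hdac9* was 0.03 ± 0.07 (SE, adjusted p = 0.918), and an interval of 2 SE put WT at 92.8% to 112% of KO. The value for *Hdac7* was -0.02 ± 0.06 (adjusted p = 0.931), with an interval of 91.4% to 107% of KO. *Hdac5* had a log2 fold change of 0.32 ± 0.09 (adjusted p = 0.0952) and *Hdac4* one of -0.40 ± 0.14 (adjusted p = 0.228). For *Mef2d*, *Mef2c* and *Mef2a* the log2 fold changes were 0.10 ± 0.05, 0.05 ± 0.05 and -0.13 ± 0.07 (adjusted p = 0.457, 0.758 and 0.486). The groups did not overlap for 4 of the 7 members (*Hdac5* and *Mef2d* higher in WT, *Hdac4* and *Mef2a* higher in KO), whereas 18.2% of all genes did not overlap.

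Over the culture of WT cells *Hdac9* and *Hdac7* fell and *Mef2d* rose. These 3 of 7 members were called in the comparison of cultured WT with fresh WT, in which 33.1% of all genes were called (15.1% higher and 18.0% lower at 4 h). This contrast shares the cultured WT libraries with the genotype difference at 4 h, by which the members were chosen, so its values are a description. *Hdac9* fell by 1.72 ± 0.08 on the log2 scale, which left 30.4% of its 0 h level (27.2% to 34.0% for 2 SE). *Hdac7* fell by 1.14 ± 0.07 to 45.3% (41.3% to 49.7%). *Mef2d* rose by 0.31 ± 0.05 to 124% (115% to 133%). The other log2 fold changes were 0.12 ± 0.14 for *Hdac4*, 0.19 ± 0.09 for *Hdac5*, -0.14 ± 0.07 for *Mef2a* and 0.01 ± 0.05 for *Mef2c*. *Mef2c* thus had an interval of 93.9% to 108% of its 0 h level. The groups did not overlap for 3 of the 7 members, nor for 40.9% of all genes. The members' median log2 fold change was 0.01, as was that of all genes tested (0.01). With library totals in place of TMM factors the median of all genes was 0.11 and the calls in all genes were 3003 higher and 1500 lower, in place of 1749 and 2079, and *Hdac9*, *Hdac7* and *Mef2d* were at -1.61, -1.03 and 0.42.

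Over the culture of KO cells *Hdac9*, *Hdac7*, *Hdac4* and *Mef2c* fell and *Hdac5* rose. These 5 of 7 members were called, where 23.3% of all genes were (10.3% higher and 13.0% lower). The cultured KO libraries are those of the genotype difference at 4 h, so these values are a description too. *Hdac9* fell by 0.44 ± 0.07 to 73.8% of its 0 h level (66.5% to 81.8%). *Hdac7* fell by 0.36 ± 0.06 to 77.9% (71.2% to 85.2%). *Hdac5* rose by 0.35 ± 0.09 to 128% (113% to 145%). *Hdac4* fell by 0.40 ± 0.14 and *Mef2c* by 0.14 ± 0.05. *Mef2d* and *Mef2a* had log2 fold changes of -0.13 ± 0.05 and -0.19 ± 0.07 and were not past the threshold. The groups did not overlap for any of the 7 members, with *Hdac5* higher at 4 h and the other 6 lower, and 41.9% of all genes did not overlap. The calls of *Hdac4* and *Mef2c* were lost, and 3 of 7 members remained, with library totals in place of TMM and without fresh KO replicate 1, 2 or 3 or cultured KO replicate 2 or 3. Culture time and any difference in handling or sequencing between the 0 h and 4 h libraries cannot be told apart.

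**Figure D2:**
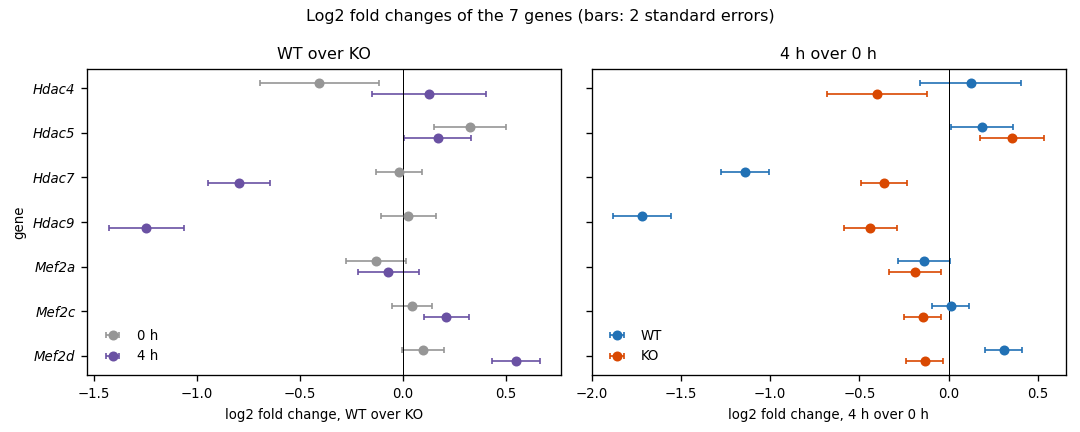
Log2 fold changes of the 7 genes from edgeR, WT over KO at 0 h and 4 h (left) and 4 h over 0 h in WT and KO (right). Points are estimates and bars 2 SE to each side. *Hdac9* and *Hdac7* are near 0 for WT over KO at 0 h and at -1.24 and -0.79 at 4 h.

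After 4 h of culture, WT cells had less *Hdac9* and *Hdac7* and more *Mef2d* and *Mef2c* than KO cells. The members were chosen with this contrast known, and 4 of 7 were past an adjusted p of 0.05, where 10.9% of all genes were (5.22% higher and 5.67% lower in WT). The WT over KO log2 fold change was -1.24 ± 0.09 for *Hdac9*, so that WT cells held 42.2% of the KO level (37.2% to 47.9%). For *Hdac7* it was -0.79 ± 0.08, or 57.7% (52.0% to 64.1%). For *Mef2d* it was 0.55 ± 0.06, or 146% (135% to 158%), and for *Mef2c* 0.21 ± 0.05, or 116% (107% to 125%). *Mef2c* was no longer past the threshold without cultured WT replicate 3, cultured KO replicate 2 or cultured KO replicate 3, which left it at 0.21, 0.20 and 0.19. *Hdac4*, *Hdac5* and *Mef2a* were at 0.13 ± 0.14, 0.17 ± 0.08 and -0.07 ± 0.07. The 4 genes past the threshold were also those whose groups did not overlap, as did not those of 27.5% of all genes.

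The culture change in WT minus that in KO describes how far the changes over culture differed. It was -1.28 ± 0.11 for *Hdac9*, -0.78 ± 0.09 for *Hdac7* and 0.44 ± 0.07 for *Mef2d*, the 3 of 7 members past the threshold, where 6.39% of all genes were (2.45% above and 3.94% below 0). The differences for *Hdac4*, *Hdac5*, *Mef2a* and *Mef2c* were 0.52 ± 0.20, -0.16 ± 0.13, 0.05 ± 0.10 and 0.16 ± 0.07.

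Transcript pools were summed within each library, and the ratios and shares of such sums do not depend on the scaling between libraries. The 4 class IIa deacetylases added up to 55.1 ± 0.78 CPM per kb in fresh WT, 52.9 ± 0.85 in fresh KO, 34.1 ± 0.57 in cultured WT and 46.1 ± 1.94 in cultured KO. The 3 MEF2 factors added up to 211 ± 9.39, 204 ± 2.35, 222 ± 1.86 and 184 ± 7.0 CPM per kb. The ratio of MEF2 to class IIa transcripts was 4.02, 3.70 and 3.79 in the fresh WT libraries, 3.89, 3.81 and 3.84 in fresh KO, 6.53, 6.41 and 6.58 in cultured WT and 3.99, 4.06 and 3.93 in cultured KO. cultured WT thus stood above the other 3 groups, which lay within 3.70 to 4.06. The makeup of the class IIa pool also differed. *Hdac7* made up 54.2 ± 2.01% of it in fresh WT, 56.9 ± 1.01% in fresh KO, 39.9 ± 2.86% in cultured WT and 50.8 ± 1.13% in cultured KO. *Hdac5* made up 24.5 ± 2.28%, 20.2 ± 1.09%, 44.9 ± 4.31% and 29.6 ± 1.27%, and *Hdac9* 17.6 ± 0.87%, 17.9 ± 0.80%, 8.73 ± 0.84% and 15.2 ± 1.17%. In cultured WT, *Hdac9* was also lower against *Hdac7* in the same library, with ratios of 0.211 to 0.224, where the other groups had 0.269 to 0.338. The ratio of *Mef2d* to *Mef2c* was 0.332 to 0.351 in cultured WT and 0.260 to 0.292 elsewhere. These ratios use exon lengths of GENCODE vM21, which may not be the annotation that was counted, and were not tested.

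**Figure D3:**
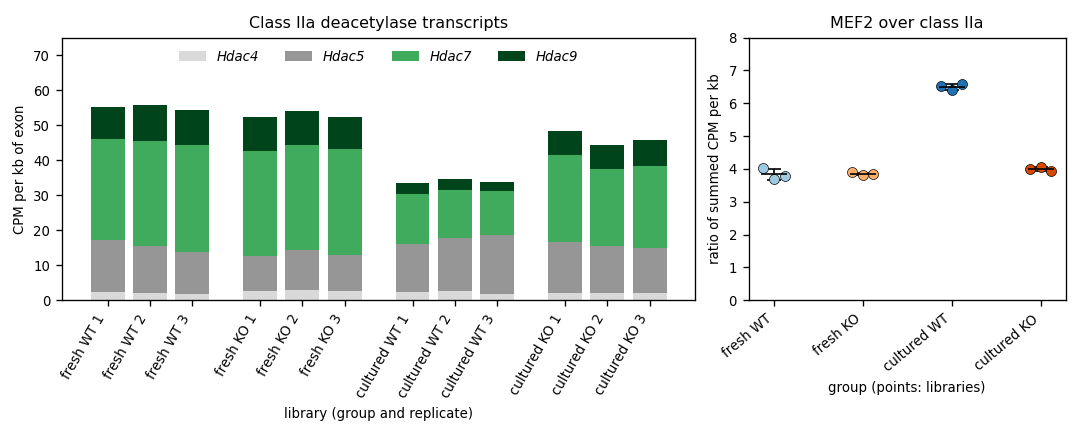
Left, CPM per kb of exon of the 4 class IIa deacetylases stacked for each of the 12 libraries. Right, ratio of the summed MEF2 factors to the summed class IIa deacetylases by group, where points are libraries, bars means and whiskers SDs. The stacks are lowest in cultured WT and the ratio is highest there, at 6.41 to 6.58.

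The genes that act with the class IIa deacetylases and MEF2 were read from lists written for this purpose with earlier results known, of which 74 of 75 genes (members left out) were in both tables and tested. At 0 h 1 of the 74 was called, at 4 h 17 (8 higher and 9 lower in WT), over culture 33 in WT and 27 in KO, and for the difference between the culture changes 8. These counts stand beside 0.987%, 10.9%, 33.1%, 23.3% and 6.39% of all genes. The median log2 fold change of the 74 at 4 h was 0.00, as was that of all genes tested (0.00). The count of 17 at 4 h was 11 without cultured WT replicate 3, 10 without cultured KO replicate 1 or cultured KO replicate 2 and 9 without cultured KO replicate 3.

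Of the kinases that phosphorylate class IIa deacetylases and their activators, 5 of 17 tested were called at 4 h. These were 3 higher and 2 lower in WT, beside 10.9% called over all genes. *Sik1*, the cyclic AMP-inducible SIK, was at 56.7 ± 6.65 CPM in fresh WT, 56.2 ± 2.79 in fresh KO, 94.0 ± 4.64 in cultured WT and 19.8 ± 1.36 in cultured KO. It rose with culture in WT (log2 fold change 0.73 ± 0.08) and fell in KO (-1.51 ± 0.10), and WT exceeded KO at 4 h by 2.25 ± 0.09. *Sik3* (0.50 ± 0.06) and *Sik2* (0.38 ± 0.11), which encode the other SIKs, were higher in WT at 4 h. *Prkd2*, a protein kinase D gene, and *Camk2d*, a calcium/calmodulin-dependent kinase gene, were lower in WT (-0.29 ± 0.06 and -0.22 ± 0.06). The list's median was 0.07. In 13 alternatives the calls of *Sik2* and *Camk2d* were each lost in 5.

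Over all genes 10.9% were called at 4 h, and among the 14-3-3 proteins, the export receptor and the phosphatases 1 of 14 was. This was *Sfn*, the gene of 14-3-3 sigma, at 24.5 ± 0.58 CPM in fresh WT, 21.4 ± 1.38 in fresh KO, 63.3 ± 5.99 in cultured WT and 35.3 ± 1.83 in cultured KO. Its genotype difference at 4 h was 0.84 ± 0.09. Of the 12 corepressor partners, *Tbl1xr1*, a subunit of the NCOR complex, was lower in WT at 4 h (-0.21 ± 0.06), and *Rfxank*, whose ankyrin repeats bind class IIa deacetylases, was higher (0.39 ± 0.11). *Hdac3*, the catalytic partner, was at 43.2 ± 2.77, 39.8 ± 3.33, 45.9 ± 3.89 and 44.9 ± 1.45 CPM in fresh WT, fresh KO, cultured WT and cultured KO, with a log2 fold change of 0.04 ± 0.09 at 4 h. Of the 14 other deacetylases, only *Hdac10* was called at 4 h, lower in WT at -0.32 ± 0.08. The calls of *Rfxank*, *Tbl1xr1* and *Hdac10* were lost in 8, 5 and 3 of 13 alternatives.

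MEF2 acts with NFAT factors. Of 10 genes of its coactivators and upstream kinases, 3 were called at 4 h, beside 10.9% of all genes. *Nfatc1* and *Nfatc2* were lower in WT (-0.34 ± 0.06 and -0.31 ± 0.08) and *Nfatc3* was higher (0.21 ± 0.06), and the calls of *Nfatc2* and *Nfatc3* were each lost in 4 of 13 alternatives. Of the 9 genes described as MEF2 targets in other cells, *Hdac9* included, 6 were called at 4 h, 2 higher and 4 lower in WT. Over all genes 5.22% were higher and 5.67% lower. *Hdac9*, whose difference at 4 h was known when the genes were chosen, is among the 6, so the count is a description. *Nr4a1*, an early response gene that class IIa deacetylases repress in thymocytes, was higher in WT at 4 h (0.88 ± 0.11), at 80.9 ± 13.6 against 43.9 ± 3.81 CPM. *Klf4* was also higher (0.99 ± 0.30), at a low level of 4.37 ± 0.56 against 2.21 ± 0.60 CPM, and its call was lost in 9 of 13 alternatives. *Bcl6*, the germinal centre repressor, *Irf8*, a lymphoid and myeloid transcription factor, and *Klf2*, a factor of B cell trafficking, were lower in WT (-0.59 ± 0.07, -0.33 ± 0.06 and -0.59 ± 0.07). *Klf2* differed the other way at 0 h, at 266 ± 1.97 CPM in WT and 197 ± 3.63 in KO (log2 fold change 0.43 ± 0.05, past the threshold). The list was written with earlier results known, so this too is a description. The directions within the list were thus mixed, and its median at 4 h was 0.07.

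**Figure D4:**
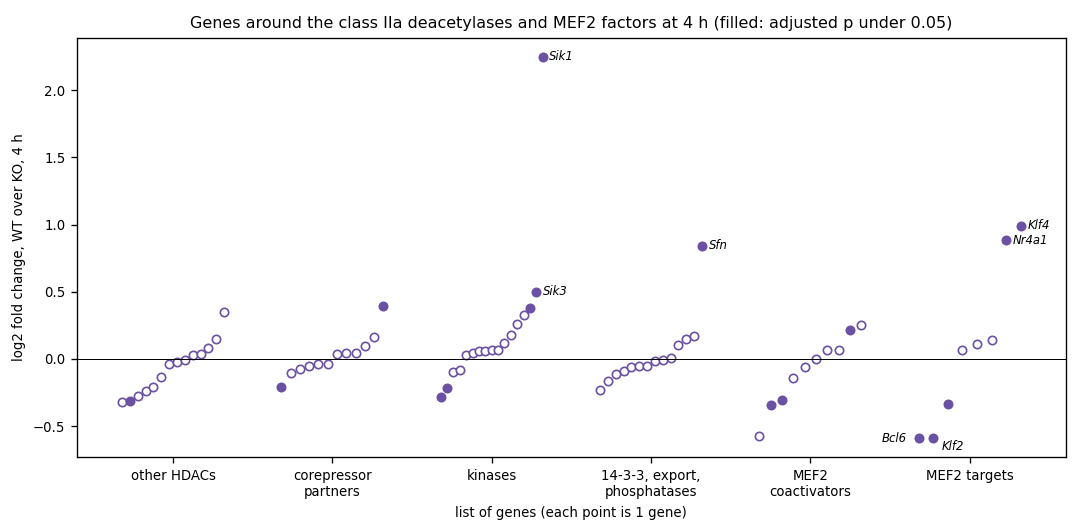
Log2 fold change of WT over KO at 4 h (vertical axis) for every tested gene of the 6 lists (horizontal axis), sorted within each list, with *Hdac9* left out of the MEF2 targets where its value of -1.24 lies below the axis. Filled points had an adjusted p under 0.05, and *Sik1* stands above all others at 2.25.

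The genes with the pattern most like that of a member were ranked by Pearson's r of log2 CPM over the 12 libraries among 9506 genes. These libraries form 4 groups and share their scaling, so r is a description here. *Hdac7* and *Hdac9* were near the top of each other's rank with r = 0.992, as was *4930420K17Rik* for both (r = 0.993 with *Hdac7* and 0.990 with *Hdac9*). The third gene was *Sh3kbp1* (0.991) for *Hdac7* and *Zc3h12d* (0.986) for *Hdac9*. *Mef2d* was most like *Per1* (0.959), *Tmem123* (0.956) and *Vps37b* (0.954), and *Mef2c* most like *Dusp1* (0.929), *Jarid2* (0.918) and *Trak2* (0.914). For *Hdac5* the gene was *Zfp598* (0.921), for *Mef2a* *Rbck1* (0.916) and for *Hdac4* *Atrnl1* (0.914). By Spearman's rank correlation *Ptpn1* (0.979) came first for *Hdac7*, *Ikbke* (0.965) for *Hdac9* and *Trim25* (0.951) for *Mef2d*, so the order among such genes depended on the measure. Neither *Hdac7* nor *Hdac9* was among the other's first 3 genes by Spearman's measure.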

How the data were processed

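Counts were deposited by the authors as raw read counts per gene, whole numbers with no normalization, in a table for 0 h (13269 genes) and another for 4 h (13142 genes, 12837 in both). The smallest row sum was 10 reads over 6 libraries. The authors amplified RNA with the Ovation RNA-seq System V2, ran single-end sequencing (HiSeq2500), mapped reads to mm10 with STAR and counted them with HTSeq. Versions, annotation and strand setting were not given in the sources used here. The study ran DESeq2, whose results were not used.

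Genotype was compared within each table (6 libraries). Culture changes (4 h over 0 h) and their difference between genotypes came from 1 fit of all 12 libraries over the genes in both tables. Counts were scaled by TMM, filtered with filterByExpr and tested with edgeR 4.0.16 (glmQLFit and glmQLFTest, limma 3.58.1) in R 4.3.3. Genes with a two-sided Benjamini-Hochberg adjusted p under 0.05 over all genes tested (11345 at 0 h, 11123 at 4 h and 11563 in the fit of 12) were called. A standard error is the log2 fold change over the root of its F statistic, and intervals are 2 SE to each side. CPM used TMM-scaled totals, CPM per kb the merged exon length of GENCODE vM21, and likeness log2 CPM with a prior count of 2 in genes with a mean of at least 5 CPM. Promoter sequences were from RefSeq. Plots were drawn with matplotlib 3.10.9. Scripts were tested on simulated data.

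At these depths the median SE of a log2 fold change was 0.117 at 0 h and 0.111 at 4 h. Chi-square per degree of freedom between replicates was 2.00 to 9.88, so no library was counted as a repeat of another. P-values measure the spread between these libraries. Alternatives were DESeq2 1.42.0 in place of edgeR, other scaling, no filter on low counts, fits of only the groups compared, a replicate block and leaving out each library. Members and lists were chosen with earlier results of these data known. Genes named were the members, *Gpr174*, the genes of each list called at 4 h (at most 6) and the 3 genes most like each member. Genes named beyond this rule (*Hdac3*, *Mef2b*, *Ppp3r1*, markers and overlapping genes) were chosen after their values were seen. The study's other experiments were not analysed here.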

Additional observations from a re-analysis of the deposited data

Results flagged for a closer look

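Among the members, the genes of the lists around them and *Gpr174*, 12 genes were found whose change over culture in WT minus that in KO was past an adjusted p of 0.05 in edgeR. Cell type markers were not part of this count, and *Fcer2a* was past the threshold as well (-1.10 ± 0.08). Among the members the difference was -0.78 (log2) for *Hdac7*, -1.28 for *Hdac9* and 0.44 for *Mef2d*, which were chosen with results of this contrast known. *Hdac7* and *Hdac9* fell in both genotypes and fell further in WT, whereas *Mef2d* rose in WT and had a log2 change of -0.13 in KO that was not past the threshold.

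Among the kinases the difference was 2.24 for *Sik1*, which rose in WT and fell in KO, and -0.32 for *Prkd2*, which missed the threshold in 4 of 19 alternatives. The lists were written with earlier results of this contrast known, so no p-value is given. For *Sfn* the difference was 0.65, and -0.47 for *Ppp3r1*, the regulatory subunit of calcineurin. *Ppp3r1* was at 125 ± 2.36 CPM in fresh WT, 106 ± 3.81 in fresh KO, 88.9 ± 10.0 in cultured WT and 104 ± 6.03 in cultured KO, and it was not recomputed under the alternatives. The difference was -0.37 for *Nfatc1*, 0.88 for *Nr4a1*, -0.70 for *Bcl6* and -1.02 for *Klf2*. *Klf2* fell over culture in WT by 0.84 ± 0.07. It rose in KO by 0.18 ± 0.07, just past the threshold, a call that was lost in 11 of 19 alternatives. For the targeted gene *Gpr174* it was -0.47, and its row rose over culture in KO (0.55 ± 0.07) and had a log2 change of 0.09 ± 0.06 in WT (adjusted p = 0.31). Single libraries were not screened as outliers, because each group holds 3.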

How the results depend on the processing

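The alternatives gave 581 values of the members' log2 fold changes, of which 545 kept their direction and their side of the threshold. *Hdac9*, *Hdac7* and *Mef2d* kept both in every alternative run for the culture changes in WT, their difference between genotypes and the genotype difference at 4 h. In these, the *Hdac9* difference at 4 h ran from -1.30 to -1.16 and that of *Hdac7* from -0.84 to -0.73. The 9 values that reversed lay between -0.0177 and 0.0048, and all but 1 came from leaving out a library. The exception was *Hdac9* at 0 h with library totals (-0.0055). Leaving out each library in turn, values with a reversal among them ran from -0.0058 to 0.065 for *Hdac9* at 0 h, -0.037 to 0.0048 for *Hdac7* at 0 h, -0.0078 to 0.076 for *Mef2c* at 0 h and -0.0177 to 0.069 over culture in WT, -0.0015 to 0.24 for *Hdac4* over culture in WT and -0.0037 to 0.11 for the *Mef2a* difference between culture changes.

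Members called over culture in KO numbered 5, but 3 with library totals, 3 to 6 leaving out a library and 7 with only the KO groups in the fit. Called members numbered 3 to 4 at 4 h and over culture in WT leaving out a library. *Hdac4* also missed the threshold over culture in KO with DESeq2, and *Mef2c* without a filter on low counts. Genes of the lists called at 0 h numbered 1, with 2 by DESeq2 and 1 to 3 leaving out a library, and at 4 h 17, with 9 to 17 leaving out a library. Over all genes, calls at 0 h numbered 112, but 26 without fresh KO replicate 1, 50 and 59 without fresh WT replicate 2 and 3 and 55 without fresh KO replicate 3. At 4 h they numbered 1212, but 776 without cultured KO replicate 1. The cause of these changes was not tested. Library totals moved the calls at 0 h from 57 higher and 55 lower in WT to 37 and 68, and those over culture in KO from 1193 higher and 1504 lower at 4 h to 2168 and 1102.

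Same-numbered libraries of the same genotype deviated together with r of 0.08 to 0.13 between fresh WT and cultured WT and -0.04 to 0.15 between fresh KO and cultured KO, with 2 of 3 pairs over 0.1 in each, and no source says that a number marks a mouse. Every WT library correlated best with its own number at the other time, but not every KO library did. With a replicate block, members called were 0 at 0 h, 4 at 4 h, 3 over culture in WT, 5 in KO and 3 for the difference, list genes 1, 13, 33, 31 and 8, and all genes 138, 1062, 3979, 2861 and 842. Depth limits *Hdac4*, with 114 to 161 reads per library.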

Other observations

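Genes of the lists that were called over culture and have not been named above also moved in both genotypes. *Jun*, an early response gene, fell by 1.15 ± 0.12 on the log2 scale in WT, and its fall in KO was by 1.07 ± 0.12. *Klf4* fell by 1.26 ± 0.22 and 1.93 ± 0.25 in WT and KO. *Bcor*, which encodes a BCL6 corepressor, fell by 0.63 ± 0.06 and 0.53 ± 0.06. *Xpo1*, the gene of the nuclear export receptor that carries phosphorylated class IIa deacetylases out of the nucleus, rose by 0.49 ± 0.09 in WT and 0.55 ± 0.10 in KO. *Hdac1*, a class I deacetylase gene, fell by 0.33 ± 0.08 and 0.37 ± 0.08. These 5 genes were picked after their values were seen, so their changes are a description and no p-value is given.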
